A study of Tribolium castaneum with 8 samples.

Results

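Sensory NBs is the label of 554 of the 31573 cells in a deposited annotation of single-cell RNA libraries from the red flour beetle Tribolium castaneum and the fruit fly Drosophila. The members were taken by that label alone: 439 of 21148 Tribolium cells and 115 of 10425 Drosophila cells. The Tribolium cells came from embryos aged 35 to 50 hours, for which the labels give the genotype turbo GFP, a green fluorescent protein that a trapped enhancer drives through Gal4. Live fluorescent cells were sorted, and the labels name the tissue embryonic neuroblasts. There are 8 libraries in 1 group, with no treatment and no control group, and the labels give each its own strain name, from GoGal41519 in library 1 to GoGal41526 in library 8. The design text speaks of 1 line, so whether these names mark different strains is not known, and strain name and library cannot be told apart. The sort keeps whatever cells the trapped enhancer marks, so a share here is a share of annotated sorted cells and not of the embryo. Drosophila is represented by 1 pooled set without replicates, whose genotype, stage and isolation the labels leave unstated.

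Neuroblasts are neural stem cells of insects. They leave the embryonic ectoderm and bud off ganglion mother cells, which divide into neurons or glia. The peripheral sense organs arise in a related way: proneural factors of the Achaete-Scute and Atonal families single out a sensory organ precursor from the ectoderm, Notch signalling holds back its neighbours, and in Drosophila the precursor divides a few times to give the neuron and the support cells of a bristle or stretch receptor. In Tribolium, an achaete-scute homologue is known to be needed for neural precursors to form. The label Sensory NBs joins both terms, and the sources used here do not say which genes defined it. The annotation is named as one of brain neuroblasts with label transfer between the species. The part of that transfer in the species differences below was not tested. The table holds a label, a barcode and a species per cell and no expression values, so the label could not be checked against marker genes, and nothing below speaks of gene activity.

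Library sizes set what could be seen. The 8 libraries held 77 to 7639 annotated cells, with library 8 the largest and library 3 the smallest. Library 8 also stands apart in composition, so each result is given with it and without it. Of the Tribolium cells, 144 (0.681%) had a barcode that also occurs in another library, and 2 of these were Sensory NBs, 1 of them in library 8. No barcode was a Sensory NBs cell in more than 1 Tribolium library (0 barcodes). Whether each library had its own collection of embryos is not stated, so the spread between libraries may be technical.

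Most beetle cells with this label came from a single library. Library 8 held 354 Sensory NBs, which is 80.6% of the Tribolium members (exact 95% binomial interval 76.6% to 84.2%), whereas it held 36.1% of all Tribolium cells. Library 1 held 16 Sensory NBs, library 2 held 17, library 5 held 18, library 6 held 14 and library 7 held 19. Library 4 held 1 and library 3 held 0, and these are the libraries of fewer than 500 cells. Outside library 8 the beetle data thus rest on 85 cells in 6 libraries. The Drosophila set held 115.

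The first question was how much of the neuroblast pool the sensory label made up. Over the 4 labels that name neuroblasts without a question mark (NBs I, NBs II/INPs, Midline_NBs and Sensory NBs), Sensory NBs made up 3.77% ± 4.32 of Tribolium cells (SD, n = 8 libraries) and 1.74% of Drosophila cells (exact 95% interval 1.44% to 2.08%). Library 8 lay at 13.9% (12.6% to 15.3%). The other 7 libraries ran from 0% in library 3, through a median of 2.73%, to 4.55% in library 1, and averaged 2.33% ± 1.51 (SD, n = 7). The intervals of library 8 and of the highest of the others, 2.62% to 7.28%, did not overlap. In library 3 there were 0 of 21 neuroblast-labelled cells, which allows a share of up to 14.3% by the limit of 3 cells that is used for every count of 0. Intervals and limits here and below cover counting error only.

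The interval lay wholly above that of Drosophila in 2 libraries, 1 and 8. Libraries 2, 5, 6 and 7 were above the Drosophila share with overlapping intervals, and libraries 3 and 4, with 21 and 117 neuroblast-labelled cells, were below it. With libraries 1 to 7 pooled, the share was 2.78% (2.22% to 3.42%), 1.60 times the Drosophila share (exact counting interval of the ratio 1.19 to 2.13). With library 8 included, the mean of single libraries was 2.17 times the Drosophila share, and without it 1.34 times. Over consecutive blocks of the Drosophila rows the share ran from 0% to 7.90%, a range that the Drosophila interval does not cover. No p-value was computed between species: with 1 value against 8, an exact permutation test cannot go below 0.111.

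**Figure D1:**
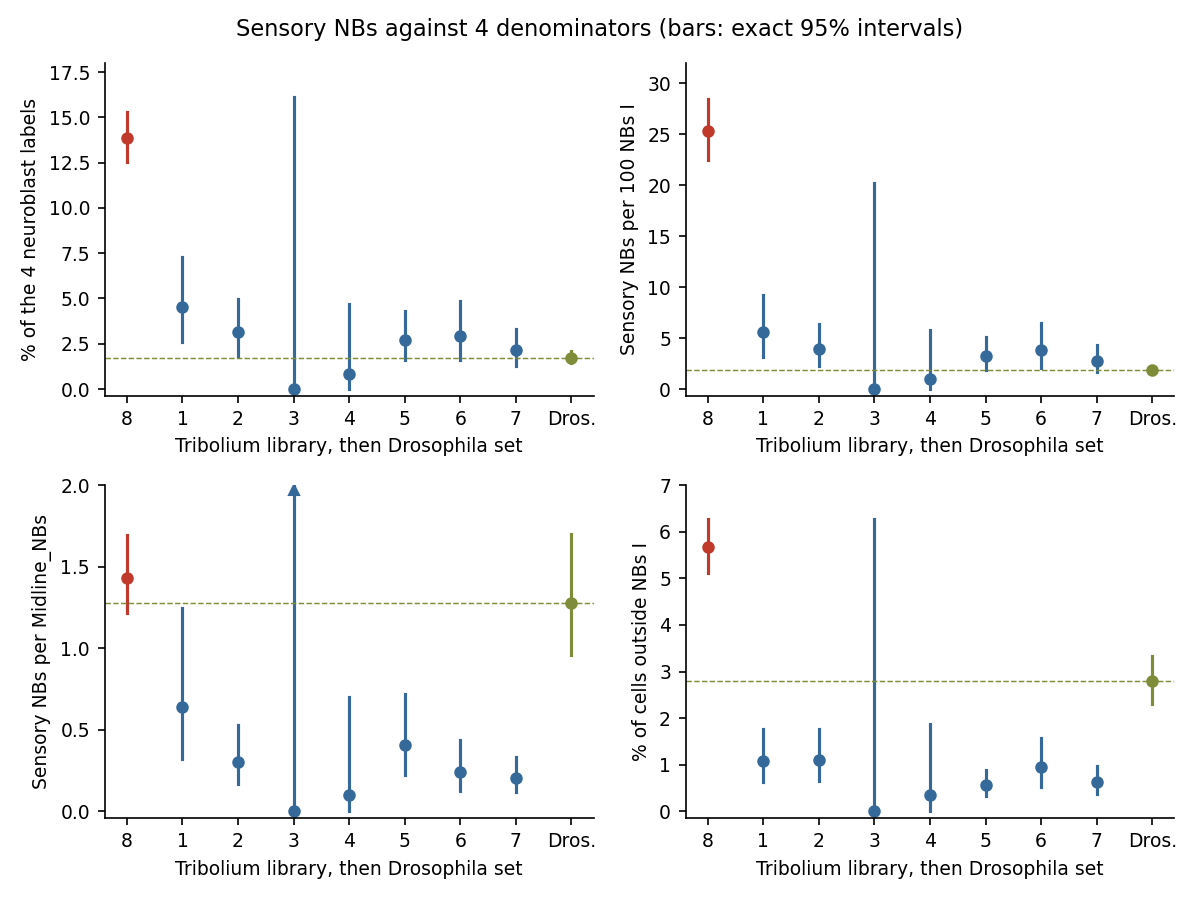
Sensory NBs in each Tribolium library (library 8 in red, the others in blue) and in the pooled Drosophila set (green, dashed line), as a percentage of the 4 neuroblast labels, per 100 NBs I cells, per Midline_NBs cell and as a percentage of the cells outside NBs I. Points are values, bars are exact 95% intervals (wider for library 3 than the limit of 3 cells), and the arrowhead marks an interval of library 3 that runs past the axis. The point of library 8 lies above that of each other library in all 4 panels. The bar of library 3 reaches past that point in each panel except the one per 100 NBs I cells. The Drosophila value lies low in the upper panels (1.74% and 1.82 per 100). It lies above the points of libraries 1 to 7 in the lower ones (1.28 per cell and 2.79%).

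The make-up of the neuroblast pool shows what the sensory label was set against. NBs I, the label that carries the name of type I neuroblasts, made up 54.8% of the neuroblast-labelled cells of library 8, against 82.9% ± 6.17 in the other libraries (SD, n = 7). It made up 95.3% in Drosophila. NBs II/INPs, named for type II neuroblasts and the intermediate progenitors through which they divide, made up 21.6% in library 8, 6.20% ± 2.96 in the others (SD, n = 7) and 1.56% in Drosophila. Midline_NBs, named for the precursors along the ventral midline, made up 9.68% in library 8, 8.58% ± 2.57 in the others (SD, n = 7) and 1.36% in Drosophila. In Drosophila the 3 labels other than NBs I held 103 NBs II/INPs, 90 Midline_NBs and 115 Sensory NBs cells.

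Among those 3 labels, Sensory NBs had the fewest cells of the 3 in 6 of 8 Tribolium libraries. In library 8 Midline_NBs had fewer, with 247 cells, and library 3 had 1 Midline_NBs cell and none of the others. Sensory NBs had the most cells of the 3 in Drosophila, although its margins over NBs II/INPs and over Midline_NBs were both within counting error. Among these 3 labels, Sensory NBs made up 14.6% ± 9.97 in Tribolium (SD, n = 8) and 37.3% in Drosophila (31.9% to 43.0%). Library 8 lay at 30.7% (28.1% to 33.5%), and the others averaged 12.2% ± 8.13 (SD, n = 7). Each library lay below the Drosophila share, and for libraries 2, 4, 5, 6 and 7 the intervals did not overlap it. The overlap of the intervals of libraries 1, 3 and 8 with that of Drosophila does not show that their shares were equal.

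**Figure D2:**
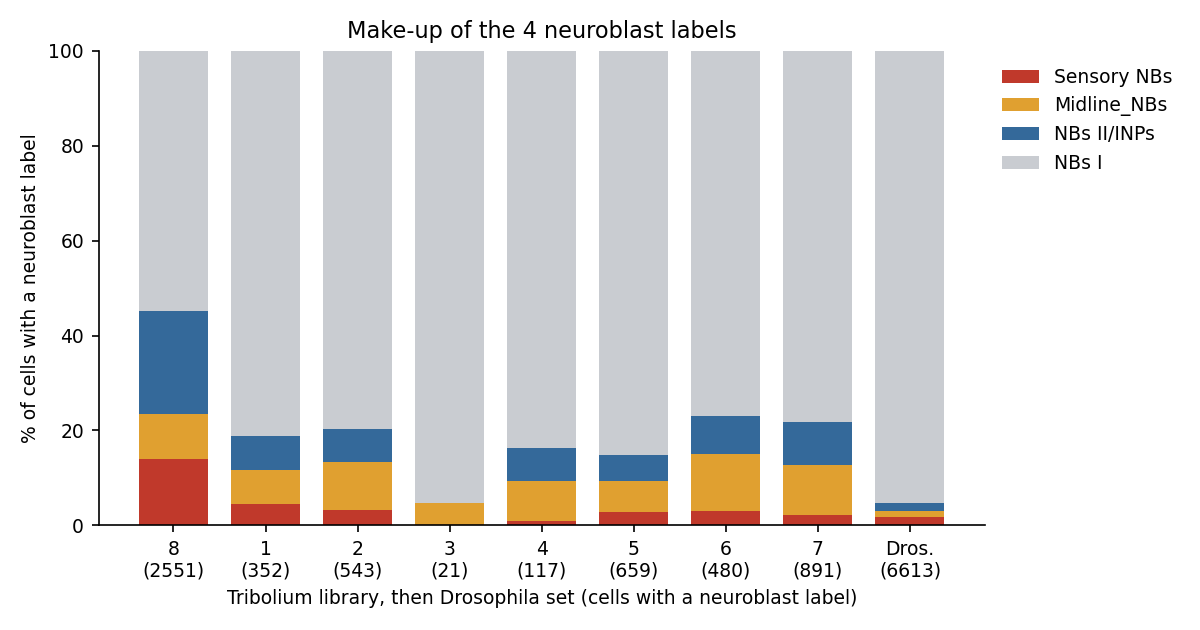
Percentage of the neuroblast-labelled cells that carry each of the 4 labels, stacked from 0 to 100, in Tribolium library 8, libraries 1 to 7 and the Drosophila set; the number of such cells is under each bar. Sensory NBs take 13.9% of the bar in library 8, at most 4.55% in the other libraries and 1.74% in Drosophila, where NBs I fill 95.3%.

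Counted per NBs I cell, the sensory label was above the Drosophila value in 6 of 8 beetle libraries and below it in libraries 3 and 4. There were 5.70 ± 8.11 Sensory NBs per 100 NBs I cells in Tribolium (SD, n = 8) and 1.82 in Drosophila (exact 95% interval 1.50 to 2.19). Library 8 had 25.3 per 100 (22.5 to 28.5). The others ran from 0 in library 3, where 20 NBs I cells allow up to 15.0 per 100, through a median of 3.21, to 5.59 in library 1, and averaged 2.90 ± 1.88 (SD, n = 7). The intervals of libraries 1, 2 and 8 lay wholly above that of Drosophila. With libraries 1 to 7 pooled there were 3.45 per 100 (2.75 to 4.28), 1.89 times the Drosophila value (exact counting interval 1.41 to 2.53). Consecutive blocks of the Drosophila rows ran from 0 to 8.96 per 100, a range that these intervals do not cover. The denominator differed as well: NBs I made up 20.1% of all cells in the Tribolium mean and 60.5% in Drosophila. Beside 3863 NBs I cells, Tribolium had 777 NBs II/INPs and 535 Midline_NBs cells, and Drosophila had 103 and 90 beside 6305. A higher number per NBs I cell was thus not particular to Sensory NBs.

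Counted per Midline_NBs cell, the beetle mean was below the Drosophila value. There were 0.416 ± 0.455 Sensory NBs per Midline_NBs cell in Tribolium (SD, n = 8) and 1.28 in Drosophila (0.961 to 1.70). Library 8, at 1.43 (1.21 to 1.69), was near the Drosophila value, with a ratio of 1.12 whose exact counting interval runs from 0.906 to 1.40. The others ran from 0 in library 3, through a median of 0.241, to 0.640 in library 1, and averaged 0.271 ± 0.210 (SD, n = 7). All 7 were below the Drosophila value, and the intervals of libraries 2, 4, 5, 6 and 7 lay wholly below that of Drosophila. Library 3 enters with 1 Midline_NBs cell, and without libraries 3 and 8 the mean was 0.316. Pooled, libraries 1 to 7 had 85 Sensory NBs and 288 Midline_NBs cells, 0.231 times the Drosophila ratio (0.172 to 0.308). Consecutive blocks of the Drosophila rows ran from 0.533 in the sixth block to 3.56 in the last, a range that these intervals do not cover. Those blocks held 15 and 9 Midline_NBs cells, and the first block held 0.

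The share among the cells outside NBs I sets aside the label whose share of all cells differs most, in percentage points, between the species. Sensory NBs made up 1.29% ± 1.81 of these cells in Tribolium (SD, n = 8) and 2.79% in Drosophila (2.31% to 3.34%). Library 8 lay at 5.67% (5.11% to 6.28%), above the Drosophila interval. The other libraries ran from 0% in library 3, where 0 of 57 cells allows up to 5.26%, through a median of 0.626%, to 1.10% in library 2. They averaged 0.667% ± 0.410 (SD, n = 7), 0.239 times the Drosophila share. The intervals of libraries 1, 2, 4, 5, 6 and 7 lay wholly below that of Drosophila. At the pooled Drosophila rate, libraries 1 to 7 together would have held 308.3 Sensory NBs among their cells outside NBs I, and they held 85. Across consecutive blocks of the Drosophila rows this share ran from 0% to 6.30%, a range that neither the intervals nor the pooled rate covers.

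The species difference outside NBs I also depends on how libraries are weighted. With all Tribolium cells pooled, library 8 carries more weight, and the share was 2.54% (2.31% to 2.79%), which overlaps the Drosophila interval. With libraries 1 to 7 pooled it was 0.770% (0.615% to 0.951%), which does not.

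Once NBs I was set aside, Sensory NBs and PCGs were the labels whose equally weighted library means lay farthest below their Drosophila shares. Of the 9 labels outside NBs I with at least 10 cells in the table, 2 had a Tribolium mean at least 2-fold below Drosophila (22.2%). They were Sensory NBs, at 0.463 times the Drosophila share, and PCGs, at 0.00612 times, with 2 Tribolium and 85 Drosophila cells. None was at least 2-fold above (0 labels). The other 7 labels lay between 0.682 and 1.31 times. Without library 8 Sensory NBs lay at 0.239 times the Drosophila share, and the others lay between 0.721 and 1.24 times, and PCGs at 0.00700 times, so the count was again 2 of 9. These ratios have no test, since the Drosophila set has no spread of its own. Library 8 alone lay at 2.03 times the Drosophila share of Sensory NBs. The order also depends on the equal weights. With all cells outside NBs I pooled, Sensory NBs were 439 of 17285 in Tribolium and 115 of 4120 in Drosophila. The label plasmatocytes/embryonic hemocytes/macrophages then had 910 and 351 of these cells, and lay farther below its Drosophila share than Sensory NBs did.

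Library 8 differed from the other libraries in the sensory label by a larger ratio than in any of the other 8 labels with at least 10 Tribolium cells. As a share of all cells, Sensory NBs were 8.59 times the mean of the other 7 libraries there. Of 9 labels with at least 10 Tribolium cells, 3 were at least 2-fold above that mean in library 8 (33.3%) and 2 were at least 2-fold below (22.2%). The 3 were Sensory NBs, NBs II/INPs at 4.77 times and NBs II/INPs/newborn neurons_2? at 2.23 times. The share outside NBs I in library 8 was 12.2 SD of the other 7 libraries above their mean. Library 8 was singled out with its values known, and 1 library against 7 cannot give an exact permutation p below 0.125, so no p-value was computed.

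**Figure D3:**
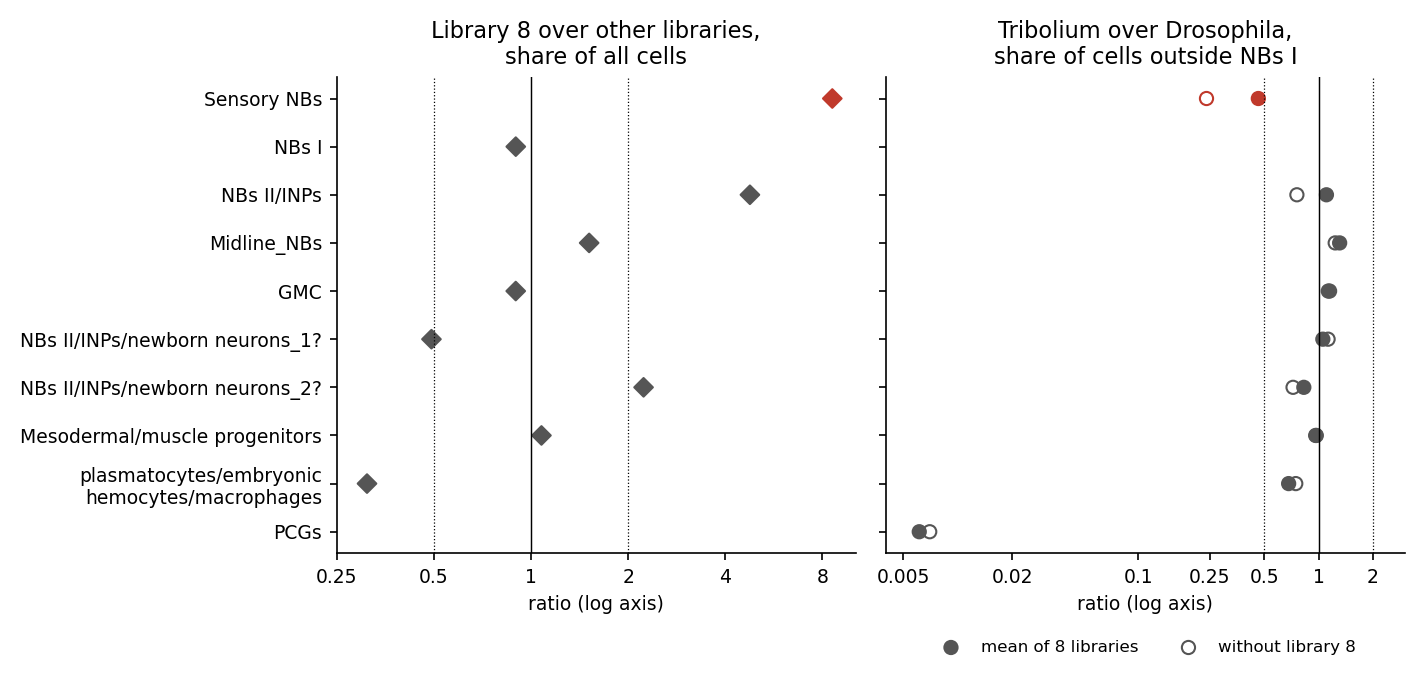
Ratios for the cell labels, on log axes with lines at 1 and at 2-fold either way. On the left, the share of all cells in library 8 over the mean of libraries 1 to 7, with Sensory NBs (red) farthest to the right at 8.59. On the right, the mean Tribolium share over the Drosophila share among cells outside NBs I, with all 8 libraries (filled, Sensory NBs at 0.463) and without library 8 (open, 0.239), and PCGs at 0.00612 and 0.00700; NBs I has no value there, and PCGs, with 2 Tribolium cells, has none on the left.

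Set against NBs II/INPs, the excess of library 8 over the other libraries was smaller, and library 1 was level with it. There were 0.642 Sensory NBs per NBs II/INPs cell in library 8 (0.561 to 0.736) and 0.640 in library 1 (0.319 to 1.25). The others fell between 0.125 in library 4, with 1 and 8 cells, and 0.500 in library 5, and library 3 had no cell of either label (0 cells). The mean of libraries 1, 2, 4, 5, 6 and 7 was 0.386 ± 0.187 (SD, n = 6), so that library 8 lay 1.37 SD above it. Pooled over libraries 1 to 7 the ratio was 0.376, and library 8 was 1.71 times that (exact counting interval 1.34 to 2.19), against 7.34 times for Sensory NBs per NBs I cell (5.77 to 9.41). The sensory and the type II labels were thus both high in library 8. Drosophila had 1.12 Sensory NBs per NBs II/INPs cell (0.848 to 1.47), above each of the 7 libraries with a value. The intervals of libraries 2, 6, 7 and 8 lay wholly below that of Drosophila, and those of libraries 1, 4 and 5 overlapped it.

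Per 100 ganglion mother cells (label GMC), there were 2.66 ± 3.88 Sensory NBs in Tribolium (SD, n = 8) and 5.94 in Drosophila (4.88 to 7.18). Library 8 had 12.1 (10.8 to 13.5) and the others 1.31 ± 0.818 (SD, n = 7). Over the denominators used, the libraries with a sensory cell other than library 8 thus had from 0.559 to 3.07 times the Drosophila value per NBs I cell, from 0.0905 to 0.367 times per GMC cell and from 0.0783 to 0.501 times per Midline_NBs cell.

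**Figure D4:**
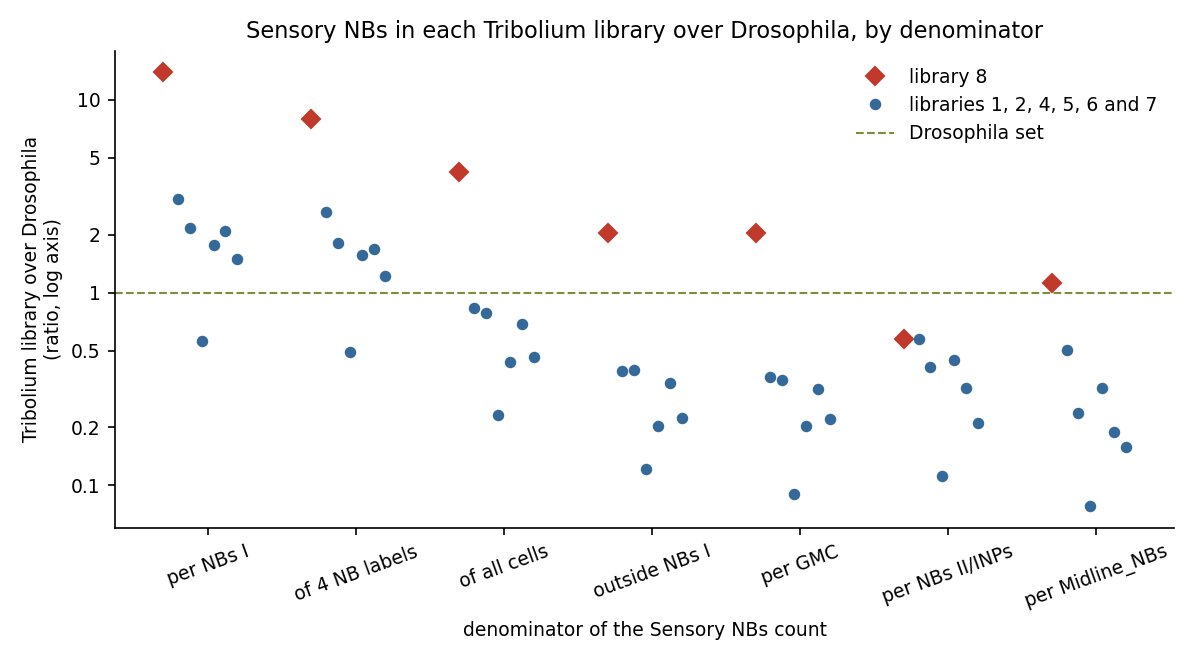
Sensory NBs in each Tribolium library as a ratio to the Drosophila value (dashed line at 1, log axis), for 7 denominators. Library 8 (red diamonds) lies at 13.9 per NBs I cell and at 0.575 per NBs II/INPs cell. Of the others (blue points; library 3, at 0 or with no value, is not drawn), 5 lie above the Drosophila value per NBs I cell and 0 do per Midline_NBs cell.

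The last question was how the sensory label varied among libraries 1 to 7. Its share of all cells there was 0.539% ± 0.333 (SD, n = 7). Against counting error, chi-square per degree of freedom, which is near 1 for counting error alone, was 1.32 for the share of the neuroblast labels, 1.25 per NBs I cell, 1.41 for the share outside NBs I and 1.96 per Midline_NBs cell, the last with 1 cell in a library's denominator. Chi-square per degree of freedom was 1.22 per GMC cell and 1.64 for the share outside NBs I and GMC. Per NBs II/INPs cell, where library 3 has no value, it was 1.80, and among the 3 labels other than NBs I it was 1.96. No test was made on these values. The neighbours in the order of libraries 1, 2, 6, 7 and 5 by share of all cells, from 0.912% to 0.483%, were closer than their intervals are wide.

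No other label was shown to go with it across those libraries. Of 9 relations, 8 with the share of another label and 1 with the number of cells, none passed Benjamini-Hochberg adjustment (0 of 9, lowest adjusted exact permutation p = 0.30 for Pearson's r and 0.63 for Spearman's rho, n = 7), and none had an unadjusted p under 0.05 (0 of 9). The largest Pearson's r in size was with GMC, with r = -0.75 (exact permutation p = 0.058, adjusted 0.30) and rho = -0.32 (exact permutation p = 0.50, adjusted 0.63). With libraries 3 and 4 left out, whose GMC share was farthest from the median, r was 0.89, so the value rests on those libraries. With NBs II/INPs r was 0.56 (exact permutation p = 0.20, adjusted 0.30) and rho 0.29 (exact permutation p = 0.56, adjusted 0.63), and without libraries 3 and 5 r was -0.62. With Mesodermal/muscle progenitors r was 0.70 (exact permutation p = 0.084, adjusted 0.30) and with plasmatocytes/embryonic hemocytes/macrophages 0.66 (exact permutation p = 0.10, adjusted 0.30). The largest Spearman's rho, 0.64, was shared by these last labels (exact permutation p = 0.14, adjusted 0.63 for each), and without libraries 3 and 4 their r was -0.30 and -0.07. The libraries held 0 to 19 sensory cells each, which limits what these relations can show.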

How the data were processed

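Cells came from 1 table in which the authors deposited, as text, the barcode, species and label (10 labels) of each cell, without counts, expression values or a score. The submitters' processing notes name Cell Ranger and Scanpy and give no version. Aligner settings, genome builds, cell filters, doublet treatment and the method of label transfer remain not given in the sources used here. Differences in sequencing depth per cell could not be examined. The suffix of each Tribolium barcode was read as the replicate number of the sample titles.

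Counts of Sensory NBs were divided by the counts of other labels in each library. Means and SDs weight the libraries equally. Intervals are exact 95% (Clopper-Pearson) for shares, and conditional on the 2 counts for ratios. A count of 0 allows up to 3 cells of the denominator. Correlations over libraries were tested exactly, two-sided, by permutation of all pairings, with Benjamini-Hochberg adjustment. Intervals and correlations were tested on simulated data. The members, labels and measures were chosen with earlier results of these data known, and 4 measures (per NBs II/INPs cell, per GMC cell, among the 3 labels other than NBs I, and outside NBs I and GMC) were added after the counts were seen. Labels were compared at 2-fold where they had at least 10 cells, in Tribolium for library 8 against the others and in the whole table between species; the second floor was widened from Tribolium cells after the values were seen, which added PCGs. No gene was named, as the table holds none. The software was scipy 1.17.1, numpy 2.4.6, pandas 2.3.3 and matplotlib 3.10.9 under Python 3.11.15.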

Additional observations from a re-analysis of the deposited data

Results flagged for a closer look

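For 9 measures of the sensory label, the distance of each extreme library from the next was divided by the range over libraries (Dixon's criterion), as a description, since library 8's values were known. Library 8 passed the 95% critical value in 7 of them, in each case as the highest library. Sensory NBs made up 13.9% of the neuroblast labels, 5.67% of the cells outside NBs I, 10.7% of the cells outside NBs I and GMC and 4.63% of all cells there. There were 25.3 Sensory NBs per 100 NBs I cells, 12.1 per 100 GMC cells and 1.43 per Midline_NBs cell. The 2 measures that did not pass were the number per NBs II/INPs cell and the share among the 3 neuroblast labels other than NBs I. Among libraries 1 to 7, none of the 9 measures passed (0 measures). Chance passes about 1 in 20 groups when values are equally precise. The libraries held 77 to 7639 cells and library 8 was singled out with its values known, so that rate does not apply here. These measures share 1 count, so the 7 are not separate results. With 7639 cells library 8 was the largest of the libraries, and the part of its size in these values was not tested.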

How the results depend on the processing

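Of 144 values recomputed with another weighting, denominator or set of cells, 137 kept their sign and moved by less than 1 SD between libraries, a wide margin where library 8 sets the SD. The difference Tribolium minus Drosophila in the share of all cells, -0.0518 percentage points, turned to 0.973 with all cells pooled and to 0.256 when libraries under 500 cells were left out, and ranged from -0.564 without library 8 to 0.0984 without library 3; it was also above 0 without library 4 (0.0619), 5 (0.0294) or 7 (0.0257). Library 8 minus the mean of the others went from 11.5 to 8.07 percentage points with the question-mark labels among the neuroblast labels, and outside NBs I from 5.01 to 9.31 without GMC and to 5.82 without the mesodermal, blood cell and PCGs labels, by construction, since fewer or more cells were counted. With all cells pooled, the share among the 3 neuroblast labels other than NBs I went from 14.6% to 25.1% and the species difference from -22.8 to -12.3 percentage points. Adding the question-mark labels to the neuroblast labels took the species difference from 2.03 to 0.766 percentage points over all 8 libraries. Without library 8 the species difference shrank from 2.03 to 0.591 percentage points of the 4 neuroblast labels. Per 100 NBs I cells it shrank from 3.87 to 1.07. It grew from -1.50 to -2.12 percentage points outside NBs I, and with all cells pooled it was -0.251. Per Midline_NBs cell it was -0.862, and it ranged from -1.01 without library 8 to -0.802 without library 3. Leaving out cells with a shared barcode or a Drosophila suffix changed no sign. No relation passed adjustment with all 8 libraries, where 3 of 9 had an unadjusted p under 0.05 (lowest adjusted exact permutation p = 0.061), without library 3 as well, or outside NBs I (0 relations in each). No paired analysis was possible because all libraries belong to 1 group. In library 3, 0 of 77 cells allows a share of up to 3.90% of all cells.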

Other observations

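The Drosophila cells were not uniform along the table. Divided into 10 consecutive blocks of 1042 or 1043 rows, they held 19 Sensory NBs in the first 5 blocks and 96 in the last 5. The share ran from 0% in the first block (0 of 1043 cells, which allows up to 0.288%) to 3.07% in the last (2.11% to 4.31%), and the seventh block held 2.78% (1.87% to 3.97%). Per 100 NBs I cells the blocks ran from 0 to 8.96, and among cells outside NBs I from 0% to 6.30%, the highest in a block with 127 such cells. NBs I made up 94.7% of the first block and 34.3% of the last. The position of a row names no sample, so these blocks are not replicates, and the exact intervals printed for the pooled Drosophila set do not cover such differences. The blocks were set after the data were seen.

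Drosophila barcodes came in 2 forms. Of 10232 cells without a suffix 111 were Sensory NBs (1.08%, 95% interval 0.893% to 1.30%), and of 193 cells with a suffix 4 were (2.07%, 0.568% to 5.22%). Of the suffixed barcodes, 64 also occurred without a suffix, 23 of them with the same label in both and 0 as Sensory NBs in both. Tribolium and Drosophila shared 3 barcodes, and 0 Sensory NBs had one of these.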
